A study of Mus musculus with 199 samples.

Results

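The 47 cell cycle genes described here are the rows of a mouse gene count table whose Ensembl identifiers map to a list of proliferation and division genes, a rule that uses no measured value. All 47 were found among the 37713 genes of the table. They were followed through 199 RNA sequencing libraries from a mouse model of liver cancer on a background of fatty liver disease, each kind of sample on its own. Mice called DEN ALIOS in the labels receive the liver carcinogen diethylnitrosamine with a diet rich in fat and sugar. All mice were male, wild-type C57BL/6 animals of an in-house colony, and the labels give no ages.

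Whole tissue gave 25 large tumours, 25 small tumours and 15 pieces of liver tissue, all titled DEN ALIOS, although the treatment label of the liver tissue reads "Normal". These libraries carry no animal name, so some may come from the same mouse, and the tests below take each library as independent. Ly6G+ neutrophils were sorted from DEN ALIOS mice given CXCR2i and aPD1 together (8 liver and 10 blood libraries), CXCR2i alone (10 and 10), aPD1 alone (5 and 5) or no treatment (6 and 7). CXCR2i is an inhibitor of the chemokine receptor CXCR2, and aPD1 is an antibody to the checkpoint receptor PD-1. CD3+ T cells came from DEN ALIOS mice given both agents (5 liver and 5 blood), CXCR2i (6 and 6), aPD1 (5 and 5) or none (6 and 7), and from mice labelled CXCR2i without DEN ALIOS (6 and 6) and PBS (8 and 8). Between 1 and 2 libraries of each untreated group were labelled Vehicle, and 4 of each CXCR2i group with DEN ALIOS were labelled as also given the aPD1 isotype antibody. The titles call the second source of sorted cells liver, while the protocol names tumours, and the titles' word is used below.

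Whole-tissue libraries held between 12055434 and 21850190 gene counts, with a median of 15178619. Neutrophil libraries held between 580113 and 9256224 (median 5690277), and T cell libraries between 337110 and 10755816 (median 6291781). The shallow libraries, under 1000000 counts, were liver neutrophils of the combination group replicate 2, blood neutrophils of the untreated group replicate 1 and liver T cells of the PBS group replicates 3 and 4. Neutrophil markers fixed for the check (Ly6g, S100a8, S100a9 and others) summed to between 928 and 53182 CPM, counts scaled to a library of fixed size (counts per 1000000), over the neutrophil libraries. T cell markers summed to between 779 and 3153 CPM over the T cell libraries. Liver neutrophil libraries of the aPD1 group replicates 2 and 4 and of the untreated group replicates 2 and 5 stood apart, with the T cell gene Cd3e at 66.0, 147, 54.4 and 50.5 CPM, and are called mixed below. Counts of members called that moved by over 1.5 times without the shallow and mixed libraries are given with and without them. In bulk samples a higher level can come from more dividing cells or from more RNA per cell, and these cannot be told apart.

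A cell that divides passes through G1, S, G2 and mitosis, and each step draws on its own set of genes. Cyclin D1 and cyclin E with their kinases release E2F transcription factors, which switch on genes for loading the MCM helicase and for making DNA. Later, a complex built around MuvB with B-MYB and FOXM1 drives the G2 and mitosis genes, often through a CHR element and several CCAAT boxes in their promoters. Most hepatocytes of an adult liver rest outside the cycle, mature neutrophils do not divide, and T cells divide after activation.

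Promoters of 5 members are shown because they stand for the steps the results turn on, namely helicase loading (Mcm5), the mitotic kinase (Cdk1), a mitotic cyclin (Ccnb2), the proliferation marker (Mki67) and entry into S phase (Ccne1). The sequences are RefSeq promoters of the mouse build GRCm38.p6, reading 5′ to 3′ on the gene's strand from 250 bases before the start to 50 bases after it. Capitals mark matches on either strand to the motifs searched. These were TTTCCCGC, TTTGGCGC, TTTCGCGC and TTTGCCGC for E2F, TTTGAA and TTCGAA for the CHR, and CCAAT.
Mcm5: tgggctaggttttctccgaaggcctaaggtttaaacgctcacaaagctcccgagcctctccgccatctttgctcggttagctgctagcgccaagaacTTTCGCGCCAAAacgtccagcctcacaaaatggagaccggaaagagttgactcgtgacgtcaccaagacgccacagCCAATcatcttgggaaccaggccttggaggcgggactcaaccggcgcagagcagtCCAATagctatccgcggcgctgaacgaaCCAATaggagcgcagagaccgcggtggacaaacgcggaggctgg
Cdk1: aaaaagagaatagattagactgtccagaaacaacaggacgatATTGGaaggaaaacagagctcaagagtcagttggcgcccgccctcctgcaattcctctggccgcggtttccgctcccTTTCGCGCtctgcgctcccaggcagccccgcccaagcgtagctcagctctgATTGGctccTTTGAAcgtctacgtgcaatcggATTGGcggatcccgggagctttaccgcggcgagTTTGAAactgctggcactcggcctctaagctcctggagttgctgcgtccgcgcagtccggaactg
Ccnb2: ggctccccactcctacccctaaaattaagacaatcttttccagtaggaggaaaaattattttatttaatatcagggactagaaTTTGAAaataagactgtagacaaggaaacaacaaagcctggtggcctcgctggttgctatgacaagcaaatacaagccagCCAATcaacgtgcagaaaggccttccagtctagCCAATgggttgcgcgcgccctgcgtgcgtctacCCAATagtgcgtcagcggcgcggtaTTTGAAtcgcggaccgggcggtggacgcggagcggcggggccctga
Mki67: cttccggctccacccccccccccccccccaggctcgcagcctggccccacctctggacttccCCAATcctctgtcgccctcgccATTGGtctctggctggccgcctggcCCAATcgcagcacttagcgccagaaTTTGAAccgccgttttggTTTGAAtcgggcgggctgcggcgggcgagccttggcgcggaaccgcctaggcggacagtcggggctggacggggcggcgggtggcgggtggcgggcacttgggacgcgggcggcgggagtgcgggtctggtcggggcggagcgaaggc
Ccne1: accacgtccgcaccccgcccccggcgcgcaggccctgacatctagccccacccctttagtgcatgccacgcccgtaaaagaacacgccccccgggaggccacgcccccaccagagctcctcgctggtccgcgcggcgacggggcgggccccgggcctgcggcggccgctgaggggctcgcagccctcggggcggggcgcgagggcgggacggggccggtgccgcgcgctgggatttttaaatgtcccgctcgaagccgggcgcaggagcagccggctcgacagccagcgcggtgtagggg
Mcm5 lies at chr8:75109259-75109558 on the plus strand, and its first run of capitals is a pair of overlapping E2F matches. Cdk1 at chr10:69352863-69353162 on the minus strand holds 1 E2F match, 2 CHR matches and 3 CCAAT boxes. Ccnb2 at chr9:70421505-70421804 and Mki67 at chr7:135716330-135716629, both on the minus strand, hold 2 CHR matches and 3 CCAAT boxes each. Ccne1 at chr7:38107441-38107740 on the minus strand holds none of the motifs in this window.

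Promoter sequences were matched for 38 of the 47 members, 3 of them with several starts. An E2F match stood in 8 of the 38 (21.1%), against 2.605% of the promoters of all 27025 genes in the table. The helicase loading genes, which open the DNA for copying, held 6 of these 8 among their 8 matched promoters. A CHR match stood in 20 of 38 (52.6%), against 21.7% of all promoters, and in 6 of 7 promoters of mitotic kinases and their partners. A CCAAT box stood in 29 of 38 (76.3%), against 41.1% of all promoters. A CHR match together with at least 2 CCAAT boxes stood in 13 of 38 (34.2%), against 3.08% of all promoters. A match describes the letters only and is not a measured binding site.

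Large tumours were compared with liver tissue to ask how the cycle genes differ between tumour and tissue. The 47 members as a set were higher in tumours, but not all of them. By edgeR's quasi-likelihood test with Benjamini-Hochberg adjustment over 14538 genes and the run as a term, 40 of 47 members rose and 2 fell, where 38.5% of all genes tested rose and 32.1% fell (70.5% in either direction). The members' median log2 fold change was 1.44, against 0.05 over all genes. In small tumours against liver tissue 41 rose and 2 fell, where 34.7% of all genes rose and 31% fell (65.7% in either direction), with medians of 1.40 and 0.03. Both comparisons use the same 15 pieces of liver tissue.

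The G1/S group holds the cyclins and E2F factors that commit a cell to S phase, and it was the mixed group, with 2 of its 5 members higher, 1 lower and 2 not called in large tumours. Ccne1, cyclin E1, ran from 4.38 to 33.1 CPM in large tumours (median 10.6), from 3.74 to 32.3 CPM in small tumours (median 14.2) and from 0.534 to 3.27 CPM in liver tissue (median 2.00). Every large and every small tumour lay above the highest liver tissue library, so the groups did not overlap. The log2 fold change of Ccne1 was 2.50 ± 0.26 (standard error) in large tumours, with an adjusted p of 4.91e-13 by edgeR, and 2.80 ± 0.26 in small tumours. Ccnd1, cyclin D1, ran from 66.7 to 227 CPM in large tumours (median 133), from 68.1 to 370 CPM in small tumours (median 148) and from 25.1 to 90.6 CPM in liver tissue (median 42.5). It exceeded the highest liver tissue library in 19 of 25 large and 24 of 25 small tumours, and its log2 fold changes were 1.38 ± 0.16 and 1.63 ± 0.17 (edgeR adjusted p 4.29e-11 and 7.31e-13).

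E2f8 encodes an atypical E2F that represses S phase genes and is known for its part in hepatocyte ploidy. It ran from 0.470 to 3.14 CPM in large tumours (median 1.32), from 0.495 to 5.94 CPM in small tumours (median 2.05) and from 3.56 to 13.1 CPM in liver tissue (median 7.95). All 25 large tumours and 18 of 25 small tumours lay below the lowest liver tissue library. E2f8 fell by 2.33 ± 0.23 on the log2 scale in large tumours (edgeR adjusted p 9.92e-14) and by 1.63 ± 0.22 in small tumours. Ccne2 and E2f1 did not pass the test in large or small tumours, with log2 fold changes of 0.13 ± 0.18 and 0.09 ± 0.10 in large tumours.

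Of the 10 licensing and helicase genes, which load and start the MCM helicase, 8 rose in large tumours and 9 in small tumours, with median log2 fold changes of 0.64 and 0.65. Mcm5, a subunit of that helicase, ran from 3.00 to 11.3 CPM in large tumours (median 6.54), from 4.94 to 13.7 CPM in small tumours (median 7.31) and from 2.05 to 7.93 CPM in liver tissue (median 3.86). Its ranges overlapped, and its log2 fold changes were 0.91 ± 0.13 and 1.00 ± 0.13. Cdc45 was not called in large or small tumours, and Mcm4 was not called in large tumours. Of the 6 genes for nucleotide synthesis and the replication fork 4 rose and 1 fell in each tumour class. Pcna, the sliding clamp of the fork, ran from 6.86 to 12.1 CPM in large tumours (median 8.98), from 7.43 to 12.3 CPM in small tumours (median 9.16) and from 8.65 to 10.9 CPM in liver tissue (median 9.78). The liver tissue range of Pcna lay inside both tumour ranges. Below the lowest liver tissue library lay 8 of 25 large and 10 of 25 small tumours, and above the highest 3 and 2. The Pcna log2 fold change of −0.06 ± 0.06 in large tumours did not pass the test (edgeR adjusted p 0.31). Tk1, thymidine kinase, ran from 2.93 to 18.2 CPM in large tumours (median 5.69), from 2.85 to 19.5 CPM in small tumours (median 6.59) and from 8.32 to 36.9 CPM in liver tissue (median 12.0). It lay below the lowest liver tissue library in 23 of 25 large and 19 of 25 small tumours and fell by 1.72 ± 0.17 and 1.38 ± 0.18 on the log2 scale.

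The 26 members that act in G2 and mitosis all rose in both tumour classes. Their median log2 fold changes in large tumours were 1.84 for the cyclins, Cdk1 and their transcription factors, 1.85 for mitotic kinases and their partners, 1.80 for chromosome and centromere genes, and 1.88 for spindle and cytokinesis genes. Mki67, which coats mitotic chromosomes and marks cycling cells, ran from 5.45 to 34.6 CPM in large tumours (median 16.2), from 5.75 to 39.6 CPM in small tumours (median 17.2) and from 2.50 to 17.5 CPM in liver tissue (median 4.46). It exceeded the highest liver tissue library in 11 of 25 large and 12 of 25 small tumours, and liver tissue replicates 2 and 3, at 17.5 and 15.6 CPM, lay within the tumour range. The log2 fold changes were 1.80 ± 0.22 in large tumours (edgeR adjusted p 7.58e-11) and 1.70 ± 0.21 in small tumours (4.16e-10). Top2a, the topoisomerase that untangles copied DNA, ran from 3.51 to 20.0 CPM in large tumours (median 10.6), from 2.83 to 38.5 CPM in small tumours (median 11.1) and from 1.43 to 11.8 CPM in liver tissue (median 3.08). Its groups overlapped in the same way, with 10 large and 9 small tumours above the highest liver tissue library, and its log2 fold change was 1.70 ± 0.21 in large tumours.

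The largest rise of any member in large tumours was that of Hmmr, a spindle protein and hyaluronan receptor, at 2.63 ± 0.30, followed after Ccne1 by Cdc20 at 2.35 ± 0.28 and Ccnb2 at 2.30 ± 0.25. Cdc20 activates the complex that ends mitosis, and Ccnb2 is cyclin B2. In small tumours Ccne1 led, before Hmmr at 2.53 ± 0.30, Cdc20 at 2.1 ± 0.28 and Prc1, a midzone protein of cytokinesis, at 2.09 ± 0.27. The plot of 6 members by tissue library shows these contrasts, with Ccne1 apart and Mki67, Top2a and Ccnd1 shifted with overlap. The liver tissue range of Pcna lies inside both tumour ranges there. Against these rises, the summed level of the 46 members other than Ccnd1 ran from 162 to 436 CPM in large tumours (median 253), from 172 to 530 CPM in small tumours (median 265) and from 137 to 253 CPM in liver tissue (median 152). It exceeded the highest liver tissue library in 12 large and 14 small tumours.

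**Figure D1:**
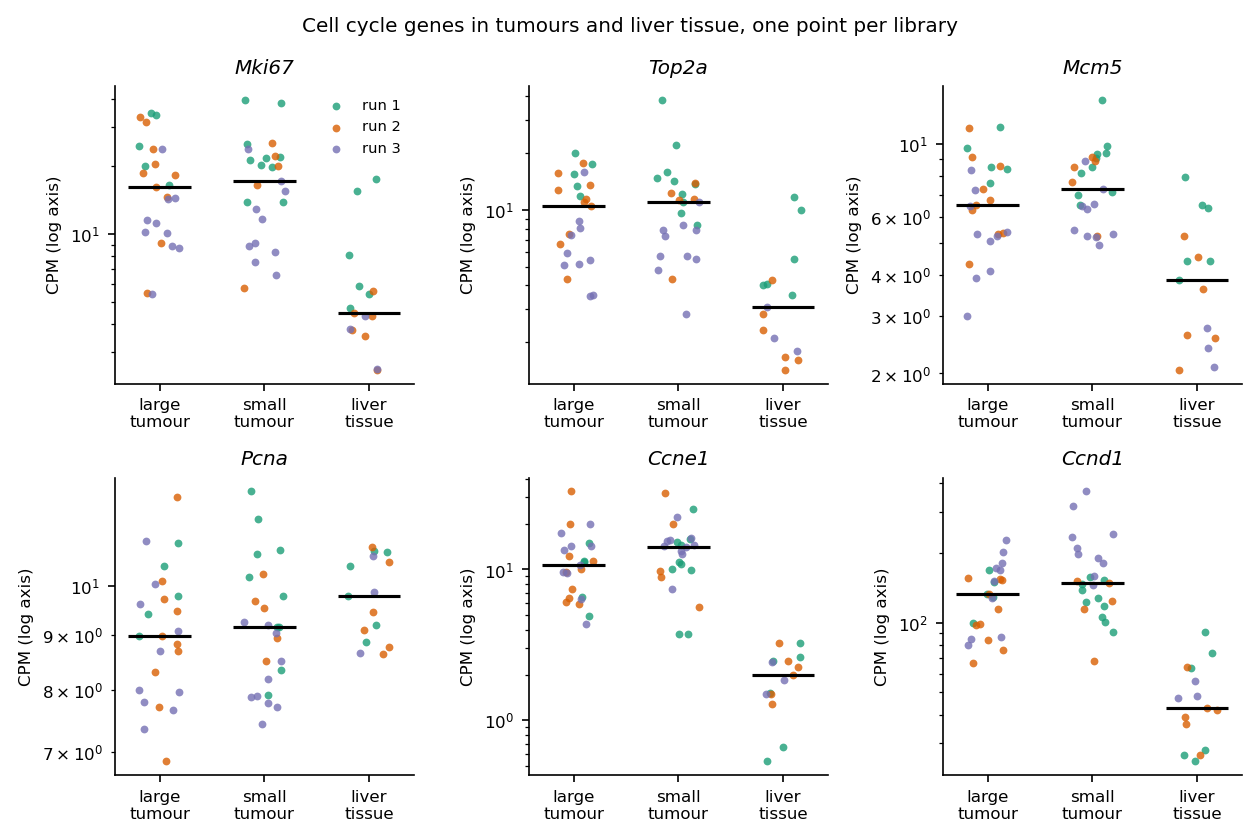
CPM on a log axis of 6 members in each whole-tissue library, with large tumours left, small tumours in the middle and liver tissue right; colours mark the run and black lines the group medians. Ccne1 lies above the highest liver tissue library in all 25 large and all 25 small tumours, while Pcna has medians of 8.98, 9.16 and 9.78 CPM in large tumours, small tumours and liver tissue.

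Libraries came from 3 runs, each named by the code that opens a library's description and each holding all 3 tissue groups. Median Mki67 in large tumours, small tumours and liver tissue was 24.6, 21.6 and 6.98 CPM in run 1, 18.5, 20.1 and 4.05 CPM in run 2, and 10.7, 10.4 and 3.79 CPM in run 3. Within a run, the number of members higher in large tumours was 33, 36 and 31 for runs 1, 2 and 3, with 2 lower in each. In small tumours it was 33, 38 and 27, again with 2 lower in each. Of all genes 22.1%, 30.4% and 19.1% rose in large tumours within these runs, and 22.9%, 25% and 15.7% in small tumours. The shares that fell were 21.9%, 30.6% and 16.1% in large and 19.9%, 25.4% and 14.5% in small tumours. The log2 fold change of Mki67 in large tumours was 1.42, 2.21 and 1.73 within these runs.

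Other cell types also differed between tumours and tissue. Hepatocyte markers summed to between 114971 and 235051 CPM in large tumours and between 49505 and 117723 CPM in liver tissue, with 4 of 6 tested markers higher and 1 lower. Kupffer cell and macrophage markers summed to between 158 and 617 CPM in large tumours and between 599 and 1068 CPM in liver tissue, and all 7 fell. T cell markers, 5 of 7 higher, summed to between 1.66 and 35.6 CPM in large tumours and between 2.44 and 16.1 CPM in liver tissue. The part of these cell types in the members' changes was not tested.

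Large and small tumours were compared to ask whether tumour size goes with the cycle genes. No member passed the test by edgeR, where 2.48% of all genes did (0.929% higher and 1.55% lower), while 4 members had an unadjusted p under 0.05 and DESeq2 called 1. The median log2 fold change was 0.10 for the members and 0.01 for all genes. Mki67 differed by 0.10 ± 0.17 (edgeR adjusted p 0.802) and Ccnd1 by −0.25 ± 0.14 (0.321) on the log2 scale. The largest difference was that of E2f8 at −0.70 ± 0.21 (edgeR adjusted p 0.0583), a value singled out after it was seen. Tumours of both classes also varied among themselves. Of the 10 tumours with the most Mki67 among all 50, 8 were also among the 10 highest for Ccna2, Ccnb1, Ccnb2, Cdk1, Foxm1, Bub1, Aurkb, Plk1, Cdc20, Ube2c, Birc5, Top2a, Cenpf, Kif11 or Kif20a, taken one at a time. The overlap was 4 for Mcm5 and Pcna, 2 for Ccne1, 1 for Ccnd1 and 0 for Tk1. These overlaps describe the same 50 libraries and carry no test.

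Genes of the pathway outside the list moved too. Of all genes 38.5% rose and 32.1% fell in large tumours, and 34.7% and 31% in small tumours. Among 13 CDK inhibitors, pocket proteins and p53 genes, 8 rose and 2 fell in large tumours, and likewise in small tumours. Cdkn2b, which encodes the p15 inhibitor of the cyclin D kinases, averaged 43.8 CPM in large tumours and 1.35 CPM in liver tissue (log2 fold change 5.06 ± 0.37). Cdkn2a averaged 14.4 and 1.31 CPM (3.59 ± 0.42), and Cdkn1a, the p21 inhibitor, 88.3 and 17.4 CPM (2.42 ± 0.24). The pocket protein Rbl2 fell by 0.58 ± 0.08 and the inhibitor Cdkn2d by 0.46 ± 0.10 on the log2 scale. Of 18 other cyclins, CDKs, E2Fs and phosphatases 12 rose and 2 fell, led by the phosphatase Cdc25c at 2.02 and the kinase Pkmyt1 at 1.58, with Ccnf lowest at −0.87. Of 29 tested other replication and mitosis genes 20 rose and 7 fell. Nuf2 and Ttk, which act at the kinetochore and its checkpoint, both rose by 2.08, and Mcm10, a replication start factor, averaged 10.1 CPM in large tumours and 58.3 CPM in liver tissue (−2.61 ± 0.22). Between large and small tumours Trp53 rose by 0.18 ± 0.05 and Mcm10 fell by 0.84 ± 0.20 on the log2 scale.

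**Figure D2:**
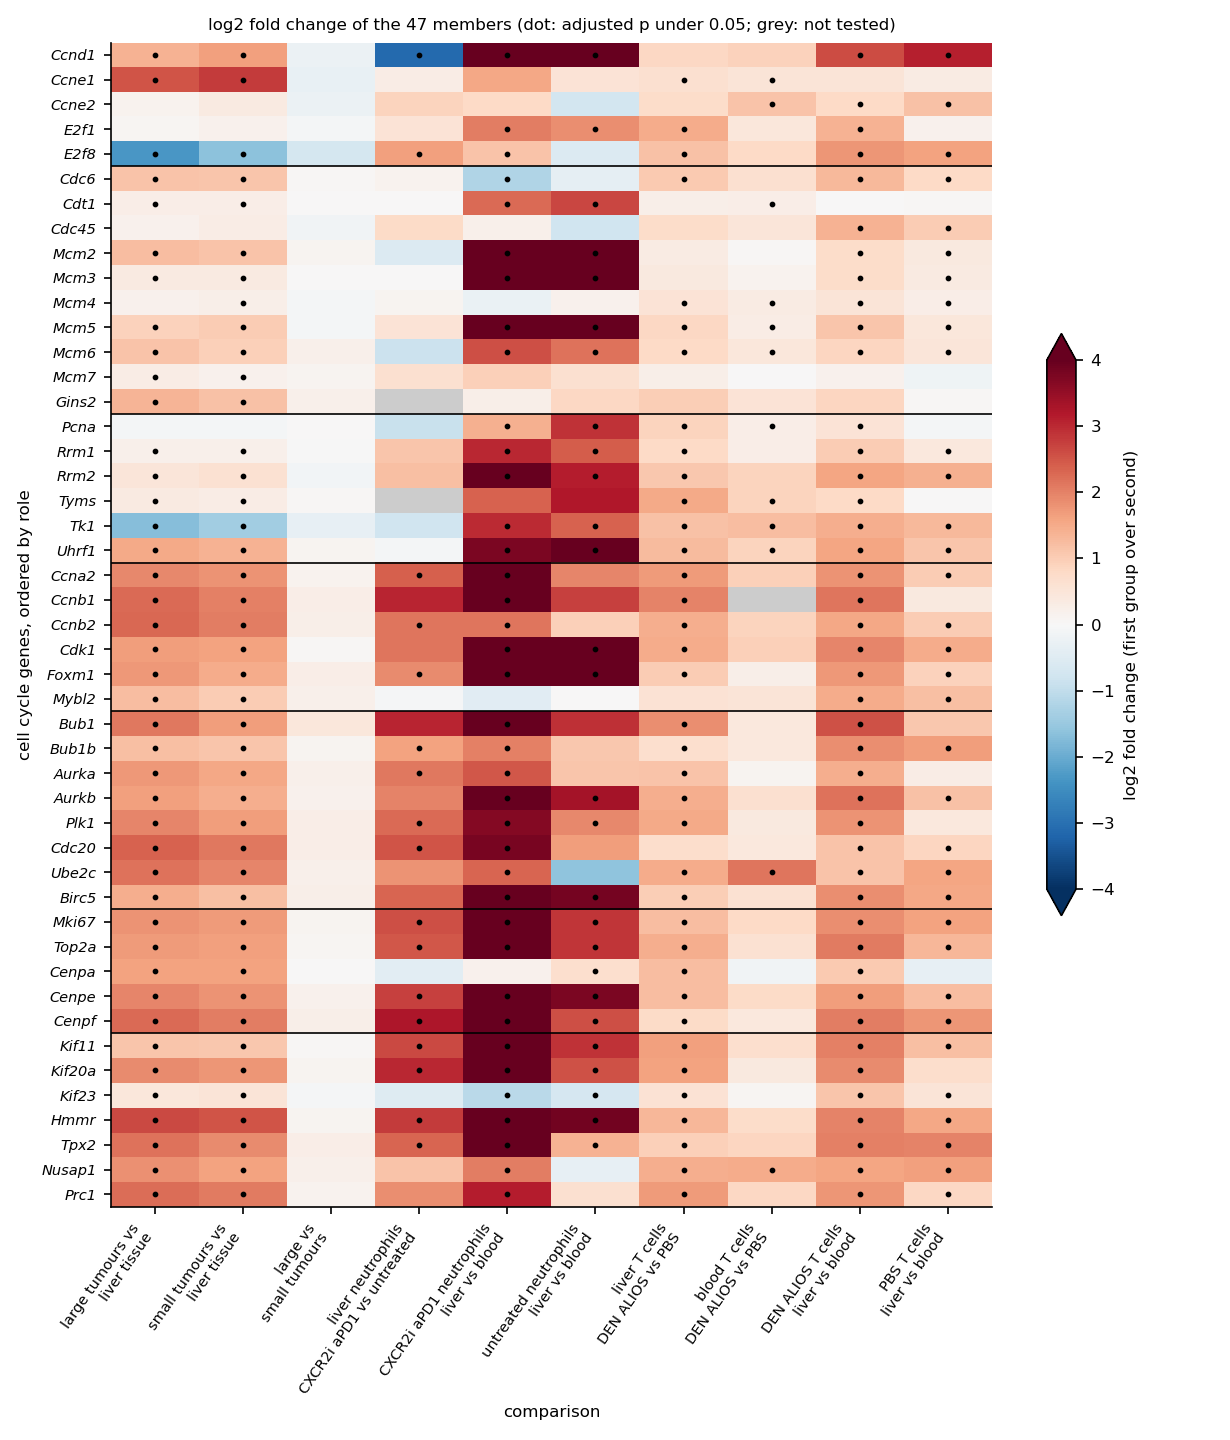
Log2 fold changes of the 47 members, grouped by role down the page, in 10 comparisons; red is higher and blue lower in the first group named, a dot marks an adjusted p under 0.05, grey was not tested, and colours stop at 4 in either direction. Ccne1 and the G2 and mitosis members are red in both tumour columns, while E2f8 and Tk1 are blue, at −2.33 and −1.72 in large tumours.

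In neutrophils from the liver, the combination of CXCR2i and aPD1 went with higher mitotic genes than no treatment. No helicase or fork gene passed the test with every library, while 2 of 9 and 2 of 5 tested rose without the shallow and mixed libraries. Of 47 members 45 passed the filter on low counts, without Gins2 and Tyms. With the run set as a term, 16 of the 45 rose and 1 fell by edgeR over 11945 genes, where 5.66% of all genes tested rose and 5.12% fell. The median log2 fold change was 1.60 for the tested members and −0.13 for all genes. The rises lay in the groups of cyclins and transcription factors (3 of 6), mitotic kinases and partners (4 of 8), chromosome and centromere (4 of 5) and spindle (4 of 7), with 1 of 5 in the G1/S group and 0 of 9 and 0 of 5 tested in the licensing and fork groups. 

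Mki67 measured 421, 192, 492, 267, 295, 196, 109 and 82.3 CPM in the combination group (lowest 82.3, median 231, highest 492) and 40.6, 160, 37.7, 7.81, 86.9 and 26.4 CPM in the untreated group (lowest 7.81, median 39.1, highest 160). The ranges overlapped through untreated replicates 2 and 5, which are the libraries with Cd3e. Mki67 averaged 257 ± 143 CPM (SD, n = 8) in the combination group and 59.9 ± 55.7 CPM (n = 6) untreated, a log2 fold change of 2.58 ± 0.65 with an edgeR adjusted p of 0.0134. Top2a ran from 27.8 to 150 CPM (median 97.2) in the combination group and from 0.710 to 69.3 CPM (median 14.0) untreated, and rose by 2.49 ± 0.74. The largest rises were those of Cenpf (3.23 ± 0.72, means 64.4 and 9.55 CPM), Kif20a (3.00 ± 0.71, 12.6 and 2.15 CPM), Hmmr (2.80 ± 0.74, 14.0 and 2.68 CPM) and Cenpe (2.74 ± 0.77, 40.3 and 8.49 CPM). Cenpf and Cenpe act at the kinetochore, and Kif20a is a kinesin of cytokinesis.

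Mcm5 ran from 2.02 to 23.9 CPM (median 6.74) in the combination group and from 0.335 to 17.6 CPM (median 3.01) untreated, and its log2 fold change of 0.56 ± 0.74 did not pass the test. Without the shallow and mixed libraries Mcm5 rose by 2.31 ± 0.82 (edgeR adjusted p 0.0491). Pcna ran from 13.3 to 28.2 CPM (median 22.4) in the combination group and from 15.7 to 70.7 CPM (median 30.7) untreated, at −0.89 ± 0.32 and an edgeR adjusted p of 0.0664. Both genes overlapped between the groups. Ccne1 was at 0 in 3 of 8 combination and 3 of 6 untreated libraries and reached 7.40 and 4.04 CPM. Ccnd1 fell by 3.10 ± 0.74 on the log2 scale (edgeR adjusted p 0.0100), and this value leans on the run set. Combination libraries of run set A held 2.02, 6.83, 0.512, 0.478 and 0.733 CPM and those of run set B 17.0, 13.7 and 15.4 CPM, while untreated libraries, all of run set A, held 2.68, 25.5, 8.95, 3.19, 12.0 and 20.8 CPM. Without the run term the Ccnd1 log2 fold change was −0.67, and within run set A it was −2.86, neither past the test.

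Without the shallow and mixed libraries 28 of 43 tested members rose and 2 fell, with a median of 2.31, where 9.12% of all genes rose. All 16 members that rose with every library were among the 28. Mki67 then differed by 3.75 ± 0.73. The helicase subunits Mcm4 (0.85 ± 0.23) and Mcm5 and the ribonucleotide reductase subunits Rrm1 (2.50 ± 0.50) and Rrm2 (2.40 ± 0.76) rose in this fit and did not pass the test with every library. Within run set A 4 members were called in all, and without the run term 6, with the share of all genes not given. Neutrophil maturity markers moved with these genes. The 7 specific granule genes of immature neutrophils (Ltf, Camp, Ngp and others) summed to between 11519 and 40228 CPM in the combination group and between 218 and 3936 CPM untreated, and all 7 rose. Camp itself ran from 546 to 1600 CPM in the combination group and from 3.55 to 113 CPM untreated, without overlap. The azurophil list of earlier precursors (Mpo, Elane and others) summed to at most 16.7 CPM in the combination group and 2.29 CPM untreated, and neither of its 2 tested genes was called. B cell markers, 5 of 5, fell. The part of neutrophil maturity in the members' change was not tested.

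No member passed the test in liver neutrophils under aPD1 or CXCR2i against untreated, or in the combination against aPD1. Under aPD1 no gene at all was called (0%), 8 members had an unadjusted p under 0.05, and DESeq2 called 0. Mki67 measured 37.3, 162, 38.1, 202 and 41.5 CPM under aPD1, with replicates 2 and 4, the mixed libraries, far above the others, and its log2 fold change was 1.98 ± 0.90 (edgeR adjusted p 0.766). Ccnd1 measured 34.5, 68.5, 16.5, 79.4 and 23.4 CPM under aPD1, and its log2 difference was −1.77 ± 0.95 with run set as a term, although its mean of 44.4 CPM lay above the untreated mean of 12.2 CPM, since no run set holds both groups. Under CXCR2i 0.142% of genes were called (0.0335% lower), 5 members had an unadjusted p under 0.05, and DESeq2 called 1, which was lower. Mki67 under CXCR2i measured 187, 66.7, 59.0, 16.3, 101, 361, 81.3, 572, 28.7 and 274 CPM, the widest range of the 4 groups, and differed by 1.53 ± 0.79 (edgeR adjusted p 0.405). In the combination against aPD1 0.444% of genes were called, 1 member had an unadjusted p under 0.05, DESeq2 called 0, and Mki67 differed by 0.61 ± 0.71.

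**Figure D3:**
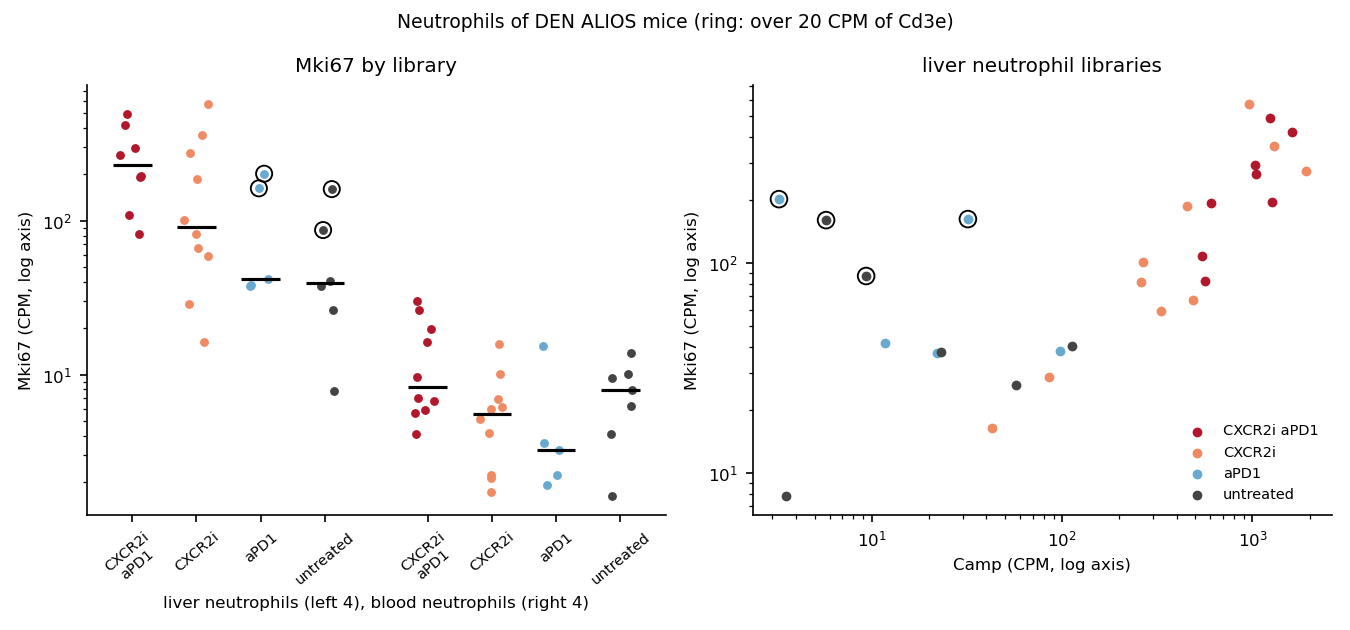
Left, Mki67 in CPM on a log axis in each neutrophil library, liver then blood, for the combination, CXCR2i, aPD1 and untreated groups; right, Mki67 against Camp in the liver libraries, with rings around libraries over 20 CPM of Cd3e. Combination libraries lie at 546 CPM of Camp or more, untreated ones at 113 CPM or less, and the ringed libraries hold high Mki67 at low Camp.

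In liver neutrophils of the combination group 6 of 28 tested other replication and mitosis genes also rose against untreated, led by Nuf2 at 2.50 and Knl1 at 2.39, and none fell. Of all genes 5.66% rose and 5.12% fell in this comparison. Of 18 other cyclins, CDKs, E2Fs and phosphatases 3 rose and 2 fell. Cdc25a, which activates CDKs, rose by 2.32 ± 0.56, and Cdk2, the kinase of cyclin E, by 1.94 ± 0.37. Ccnd2, cyclin D2, fell by 1.47 ± 0.31 on the log2 scale. None of 11 tested CDK inhibitors, pocket proteins and p53 genes was called.

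In blood neutrophils most members were low, and 22 of 47 passed the filter. Kif23 was high, with 157 to 3290 counts in the untreated libraries, where Mki67 had 6 to 87. Against untreated, the combination raised 3 of the 22, where 6.57% of all genes rose and 8.38% fell. These were Mcm4 at 0.76 ± 0.18, Pcna at 0.85 ± 0.27 and Cenpe at 1.95 ± 0.61. Pcna ran from 5.52 to 9.95 CPM (median 7.72) in the combination group and from 0 to 7.17 CPM (median 4.29) untreated, with overlap. Mki67 ran from 4.08 to 30.1 CPM in the combination group (median 8.28) and from 1.63 to 13.8 CPM (median 7.88) untreated, and differed by 0.97 ± 0.47 (edgeR adjusted p 0.173). The count called fell to 1 in each of 4 other fits, namely without a filter on low counts, without libraries labelled Vehicle or isotype, without the run term and within run set A.

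The other comparisons of blood neutrophils called no member. Under CXCR2i against untreated 6.9% of genes were called (3.05% higher and 3.85% lower), 6 members had an unadjusted p under 0.05, DESeq2 called 1, and Mki67, from 1.73 to 15.8 CPM under CXCR2i, differed by −0.10 ± 0.62. Under aPD1 0% of genes were called, 1 member had an unadjusted p under 0.05, and DESeq2 called 0. Mki67 measured 1.91, 3.24, 3.62, 2.23 and 15.2 CPM under aPD1, the last being a library with 10.4 CPM of Cd3e. It differed by 0.78 ± 0.74 with run set as a term, −0.14 without that library and −0.53 without the run term. No run set holds both aPD1 and untreated blood neutrophils, so the sign of this difference leans on the run term. In the combination against aPD1 0.0196% of genes were called, 4 members had an unadjusted p under 0.05, DESeq2 called 0, and Mki67 differed by 0.19 ± 0.60.

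Liver and blood neutrophils of the same animal were compared to ask how the site goes with the cycle genes. Most members were higher in the liver in the combination and CXCR2i groups, with and without the shallow and mixed libraries. Under aPD1 and untreated most were higher with every library, but 19 and 11 of 46 tested members rose without them. Those fits kept fewer animals, those of liver replicates 1, 3 and 5 under aPD1 and 3, 4 and 6 untreated. The share of all genes that rose was also smaller there, at 14.1% and 15.3%. With the animal as a block and 12831 genes tested, 36 of 47 members rose and 2 fell in the combination group, where 24.6% of all genes rose and 21% fell. Under CXCR2i 36 rose and 1 fell (all genes 23.6% and 16.8%), under aPD1 35 rose and 2 fell (32.8% and 21.9%), and untreated 26 rose and 1 fell (26.2% and 17.1%). Median log2 fold changes of the members in the same order were 3.13, 2.59, 3.30 and 2.36, against 0.06, 0.09, 0.24 and 0.15 over all genes. RLE factors in place of TMM factors moved these all-gene medians to 0.18, 0.15, 0.45 and 0.32. Without the shallow and mixed libraries the members' medians were 3.42, 2.77, 2.19 and 1.38.

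Mki67 was higher in the liver in 8 of 8 animals of the combination group, 10 of 10 under CXCR2i, 5 of 5 under aPD1 and 6 of 6 untreated. In the paired combination animals it averaged 257 CPM in liver and 10.7 CPM in blood neutrophils, without overlap, and its log2 fold change was 4.66 ± 0.42 (edgeR adjusted p 2.89e-09). It was 4.49 ± 0.40 under CXCR2i, 4.22 ± 0.58 under aPD1 and 2.87 ± 0.50 untreated. Without the mixed and shallow libraries it was 2.82 ± 0.63 under aPD1 and 2.58 ± 0.68 untreated, and with 1 aPD1 animal left out at a time it lay between 3.57 and 4.99. In the combination group the largest rises were those of Cenpf (5.46 ± 0.55), the chromosomal passenger kinase Aurkb (5.39 ± 0.84), the checkpoint kinase Bub1 (5.27 ± 0.81) and Ccnd1 (5.26 ± 0.92, means 7.08 and 0.0991 CPM). Ccnd1 also rose under CXCR2i, aPD1 and without treatment, at 4.32 ± 0.69, 6.40 ± 0.89 and 4.93 ± 0.87, the last 2 being 5.33 ± 1.15 and 4.6 ± 1.23 without the mixed and shallow libraries. Blood levels of many members rest on few counts. Ccnd1 had 15 counts over all untreated blood libraries, and Bub1 had 8 and Aurkb 7 over the combination blood libraries. The blood libraries of paired combination animals held at most 3 counts of Ccnd1 each.

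Untreated animals had their largest rises in Ccnd1 and the helicase genes. Mcm5 measured 0.335, 14.0, 3.36, 0.355, 17.6 and 2.67 CPM in untreated liver neutrophils and was at 0 in 5 of 7 untreated blood libraries, which held 3 counts of it in all, so no fold is given. Mcm3 and Mcm2, partners of Mcm5 in the helicase, rose by 4.88 ± 0.82 and 4.45 ± 0.76, and by 4.80 ± 1.06 and 3.31 ± 0.86 without the mixed and shallow libraries. Under CXCR2i Cenpe (5.14 ± 0.54), Cdk1 (5.13 ± 0.69), Ccna2 (5.11 ± 0.72) and Kif11 (4.61 ± 0.48) rose most. Cdk1 had 6 counts and Ccna2 13 over the 10 CXCR2i blood libraries, so the size of these 2 folds is loosely set. Cdk1 is the kinase that starts mitosis, Ccna2 is its S and G2 phase partner cyclin A2, and Kif11 pushes spindle poles apart. Under aPD1 Tyms had 0 counts and Cdk1 1 count over the 5 blood libraries, so no fold is given for either, and Ccnd1 and Mcm3 (6.07 ± 0.88) followed. The Mcm3 value turns on few libraries. Of its 24 counts in aPD1 blood neutrophils 22 lay in replicate 5, the blood library with 10.4 CPM of Cd3e. Without that animal the log2 fold change was 8.26, without replicate 4 it was 5.19, and without the mixed and shallow libraries 4.21 ± 0.92. With Tyms at the bound that 3 counts over the blood group allow, the aPD1 median stayed at 3.30.

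Kif23, a kinesin of the central spindle, fell in every group with every library. In the untreated group no member fell with RLE factors or without the shallow and mixed libraries. Its log2 fold change from liver against blood was −1.08 ± 0.23 in the combination group (means 116 and 242 CPM), −0.75 ± 0.20 under CXCR2i, −1.65 ± 0.31 under aPD1 and −0.69 ± 0.27 untreated. Without those libraries it was −0.88 ± 0.22 under aPD1 and −0.45 ± 0.22 untreated (edgeR adjusted p 0.124). The helicase loader Cdc6 also fell in the combination group (−1.20 ± 0.43), and Cdc45 fell under aPD1 (−0.97 ± 0.38), but did not pass the test there without those libraries (−0.93 ± 0.53, edgeR adjusted p 0.199). Cdc45 is part of the active helicase.

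Other cell types moved with the site. Among genes of liver neutrophils, hepatocyte markers (4 or 5 of 5 tested) and endothelial markers (5 of 5) rose in all 4 groups. C1qa, a macrophage gene, measured 212, 135, 43.0, 246 and 108 CPM in aPD1 liver neutrophils. It ran from 1.10 to 127 CPM in the combination group, 0.855 to 56.5 CPM under CXCR2i and 1.06 to 70.1 CPM untreated. Blood neutrophils held at most 1.26 CPM of it. Mixed libraries were set by Cd3e alone, so aPD1 replicates 1 and 5 stayed in the fits without them. Hepatocyte markers summed to between 28.7 and 386 CPM in liver and between 0 and 4.92 CPM in blood neutrophils of the combination group, and to between 32.6 and 694 CPM and between 0.346 and 12.5 CPM untreated. T cell markers rose in the untreated group (6 of 7) and under aPD1 (5 of 7), and none of 7 was called in the combination or CXCR2i groups. The specific granule list rose in 7 of 7 genes in the combination and CXCR2i groups, 5 untreated and 2 under aPD1. Erythroid markers were lower in liver than in blood neutrophils in 3 of 6 genes in the combination group, 5 of 6 under CXCR2i, 6 of 6 under aPD1 and 0 of 6 untreated. Without the shallow and mixed libraries 11 members rose untreated (10 of them among the 26), and 19 rose and 1 fell under aPD1, while 36 rose in each of the combination and CXCR2i groups, as before. In these fits 15.3% of all genes rose untreated, 14.1% under aPD1, 25.2% in the combination group and 26.6% under CXCR2i. Fitted on the libraries of 1 group alone, 6 members were called untreated and 17 under CXCR2i, with the share of all genes not given. The part of other cells in these changes was not tested.

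The liver-minus-blood difference itself was compared between treatments. In the combination against untreated 3 members were larger and 1 smaller, where 1.69% and 0.74% of all genes were. Ube2c, a ubiquitin enzyme of mitotic exit (3.93 ± 1.01), the spindle protein Tpx2 (2.70 ± 0.64) and E2f8 (1.68 ± 0.41) had larger differences and Pcna (−1.48 ± 0.40) a smaller one. The Ube2c counts in blood neutrophils moved with Hbb-bs, a hemoglobin gene of red cells. In the combination group replicates 1, 2, 5 and 7 held 92 to 136 counts at 3047 to 9059 CPM of Hbb-bs, and the other 6 held 0 to 10 counts at 7.28 to 697 CPM. Untreated blood libraries held 17 to 119 counts at 2404 to 7025 CPM, except replicate 7 with 3 counts at 62.5 CPM. Nusap1 and Ccna2 moved likewise, at 72 to 262 and 11 to 37 counts in combination replicates 1, 2, 5 and 7. The other combination libraries held 1 to 16 and 0 to 8 counts of them. The part of red cell RNA was not tested. Mki67 differed by 1.79 ± 0.62 (edgeR adjusted p 0.123). No member was called without the mixed and shallow libraries, or without libraries labelled Vehicle or isotype. In CXCR2i against untreated no member was called by edgeR (0.561% of genes were), 10 had an unadjusted p under 0.05, and DESeq2 called 2. Mki67 differed by 1.61 ± 0.61 there.

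In T cells from the liver, members across nearly the whole cycle were higher in untreated DEN ALIOS mice than in PBS mice. By edgeR 37 of 47 rose and none fell, where 15.8% of 12342 genes rose and 16.1% fell (31.9% in either direction). The median log2 fold change was 1.09 for the members and −0.01 for all genes, and all 47 values were positive. By role, 3 of 5 G1/S genes, 4 of 10 licensing genes, 6 of 6 fork genes, 5 of 6 cyclins and transcription factors, 7 of 8 mitotic kinases and partners, 5 of 5 chromosome and 7 of 7 spindle genes rose. The 10 not called were Ccnd1, Ccne2, Cdt1, Cdc45, Mcm2, Mcm3, Mcm7, Gins2, Mybl2 and Cdc20.

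Mki67 measured 450, 545, 787, 342, 658 and 429 CPM in untreated DEN ALIOS liver T cells (median 497) and 217, 201, 186, 92.6, 364, 153, 323 and 204 CPM in PBS liver T cells (median 202). The groups overlapped only in that PBS replicate 5, at 364 CPM, lay above DEN ALIOS replicate 4. Mki67 averaged 535 ± 164 CPM (SD, n = 6) and 217 ± 87.8 CPM (n = 8), a log2 fold change of 1.23 ± 0.25 with an edgeR adjusted p of 0.000809. Top2a ran from 180 to 377 CPM (median 249) in DEN ALIOS and from 29.5 to 144 CPM (median 89.8) in PBS, without overlap, at 1.46 ± 0.22. Pcna ran from 58.5 to 105 CPM (median 73.2) in DEN ALIOS and from 7.71 to 51.5 CPM (median 40.9) in PBS, also without overlap, at 0.91 ± 0.18. These 2 genes, one of mitosis and one of the fork, were thus both higher in every DEN ALIOS library than in any PBS library. The lowest PBS values came from shallow libraries, replicate 3 for Top2a and replicate 4 for Mki67 and Pcna. The next lowest PBS values of Top2a and Pcna were 78.4 and 29.5 CPM. The lowest PBS values of Ccne1 and Ccnd1 given below were also those of replicates 3 and 4. Mcm5 ran from 51.7 to 101 CPM (median 59.6) in DEN ALIOS and from 16.4 to 56.1 CPM (median 37.9) in PBS, with a small overlap, at 0.84 ± 0.20.

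The largest rises were those of Ccnb1, cyclin B1 (1.97 ± 0.46), Bub1 (1.86 ± 0.46), Ccna2 (1.72 ± 0.30, means 34.0 and 9.04 CPM) and Prc1 (1.70 ± 0.24, 46.6 and 13.8 CPM). Ccne1 ran from 8.53 to 18.1 CPM (median 11.4) in DEN ALIOS and from 2.95 to 9.28 CPM (median 7.92) in PBS, and rose by 0.65 ± 0.22. Ccnd1 ran from 10.6 to 71.8 CPM (median 24.2) in DEN ALIOS and from 3.86 to 28.2 CPM (median 16.0) in PBS, and its difference of 0.83 ± 0.58 did not pass the test (edgeR adjusted p 0.293), and it was −4.07 in the linked fit described next. The untreated DEN ALIOS libraries all came from run set A and the PBS libraries from run sets C and E, so run and group cannot be told apart in this comparison. A fit that ties the run sets together through the treated groups called 28 members, with the share of all genes not given. Without the shallow libraries 39 rose, 36 of them among the 37. Erythroid markers, 3 of 3 tested, were also higher, with sums from 17.7 to 5774 CPM in DEN ALIOS and from 0 to 11.6 CPM in PBS, and their part was not tested.

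Pathway genes outside the list were counted in DEN ALIOS liver T cells against PBS, where 15.8% of all genes rose and 16.1% fell. Of the CDK inhibitors, pocket proteins and p53 genes 7 of 11 rose, and of other replication and mitosis genes 21 of 30, and none of them fell. Of other cyclins, CDKs, E2Fs and phosphatases 4 of 17 rose and 2 fell, with a median log2 fold change of 0.21. The counts of that list lay closer to the shares of all genes. Cdk6, a partner of the D cyclins, averaged 224 CPM in DEN ALIOS and 34.6 CPM in PBS (2.53 ± 0.19). The inhibitor Cdkn2a averaged 2.59 and 0.0663 CPM (4.09 ± 0.66), and Cdkn1a rose by 1.97. E2f4, a repressor E2F, fell by 0.81 and Ccnd3, cyclin D3, by 0.36 on the log2 scale. Knl1, a kinetochore scaffold, rose by 1.63.

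In blood T cells the same comparison called 12 of 46 tested members, all higher in untreated DEN ALIOS than in PBS, where 12.6% of 11950 genes rose and 10.9% fell, with a median of 0.53 against 0.00 for all genes. The 12 calls lay mostly in DNA synthesis, while 45 of the 46 log2 fold changes were positive. The split by role below therefore describes which members passed the test and not how far each group of genes differed. Of the 12 called, 4 were licensing genes, 4 fork genes and 2 cyclins E, and only Ube2c and Nusap1 act in mitosis. In blood neutrophils the counts of both moved with Hbb-bs, as given above. The largest were Ube2c (2.14 ± 0.51, means 7.64 and 1.59 CPM), the spindle protein Nusap1 (1.48 ± 0.49), Tk1 (1.23 ± 0.25) and Ccne2, cyclin E2 (1.13 ± 0.27). Mcm6, at 0.47 ± 0.06, did not overlap between the groups.

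Mki67 ran from 84.7 to 324 CPM (median 136) in DEN ALIOS and from 35.3 to 289 CPM (median 58.8) in PBS blood T cells, and its difference of 0.81 ± 0.43 did not pass the test (edgeR adjusted p 0.199). The PBS group had 7 libraries at 92.8 CPM or less, with replicate 7 at 289 CPM apart from them. Top2a ran from 32.7 to 144 CPM (median 60.1) and from 18.6 to 129 CPM (median 32.0), Mcm5 from 25.4 to 38.9 CPM (median 31.0) and from 17.5 to 29.4 CPM (median 25.9), and Pcna from 40.3 to 59.0 CPM (median 51.7) and from 36.8 to 55.1 CPM (median 40.1), in DEN ALIOS and PBS in turn, all with overlap. Ccnd1 differed by 0.92 ± 0.43 (edgeR adjusted p 0.136). The fit that ties run sets together called 4 members, with the share of all genes not given, and gave −2.08 for Ccnd1. Erythroid markers, 6 of 6, were higher (49.3 to 5583 CPM in DEN ALIOS and 17.1 to 393 CPM in PBS), and their part was not tested.

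Treatment of DEN ALIOS mice called no member in T cells of either site. At both sites untreated libraries were all of run set A, aPD1 ones of run set B and CXCR2i ones of run sets B and C. Only the combination group, of run sets A and B, shared a run set with untreated. The run term therefore ties aPD1 and CXCR2i to untreated only through the combination group, and run and treatment are poorly told apart for them. In the liver the members' median log2 fold changes against untreated were −0.56 for the combination, −0.75 for CXCR2i and −0.56 for aPD1, and 1, 3 and 1 of 47 values were positive. These 3 comparisons share the untreated libraries, so their signs are not independent. By edgeR 0.169% (0.0538% lower), 0.669% and 0.00769% of all genes were called, 9, 13 and 2 members had an unadjusted p under 0.05, and DESeq2 called 1, 0 and 0. Mki67 measured 432, 387, 278, 423 and 349 CPM under the combination, 345, 293, 198, 325, 871 and 357 CPM under CXCR2i, and 487, 294, 247, 356 and 469 CPM under aPD1, against 342 to 787 CPM untreated. All 3 treated groups overlapped the untreated one, and the log2 differences were −0.41 ± 0.35, −0.73 ± 0.47 and −0.39 ± 0.46. Those of Ccnd1 were −1.0 ± 1.27, 0.57 ± 1.65 and −0.58 ± 1.64.

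In blood T cells 2.53%, 0.436% and 0.0161% of genes were called under the combination, CXCR2i and aPD1 by edgeR, 1, 4 and 0 members had an unadjusted p under 0.05, and DESeq2 called 0 in each. Mki67 differed from untreated by 0.11 ± 0.40, −0.47 ± 0.56 and −0.02 ± 0.55 in the same order. It measured 202, 127, 138, 176 and 255 CPM under the combination, 174, 120, 107, 106, 160 and 115 CPM under CXCR2i and 209, 137, 183, 134 and 205 CPM under aPD1, all inside the untreated range of 84.7 to 324 CPM. Ccnd1 differed by 0.27 ± 0.55, 1.32 ± 0.77 and 0.89 ± 0.76.

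T cells of mice labelled CXCR2i without DEN ALIOS were compared with PBS to ask how the agent goes with these genes in mice without the carcinogen and diet. In the liver 1 of 47 members rose and 1 fell. Cenpa, the centromere histone, rose by 0.94 ± 0.19 and Cenpf fell by 0.81 ± 0.27 on the log2 scale, where 8.05% of all genes rose and 9.59% fell. Mki67 ran from 120 to 303 CPM (median 206) in these liver T cells against 92.6 to 364 CPM (median 202) in PBS, at −0.14 ± 0.25, and Ccnd1 differed by 0.15 ± 0.59. In blood Tk1 alone rose, at 0.80 ± 0.27 with an edgeR adjusted p of 0.049, where 7.07% of genes rose, and it was not called with RLE factors. Mki67 in blood ran from 47.3 to 161 CPM (median 78.9) without DEN ALIOS and 35.3 to 289 CPM (median 58.8) in PBS, at −0.03 ± 0.46, and Ccnd1 differed by 0.72 ± 0.46. The run sets of these groups do not overlap, so run and group cannot be told apart.

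**Figure D4:**
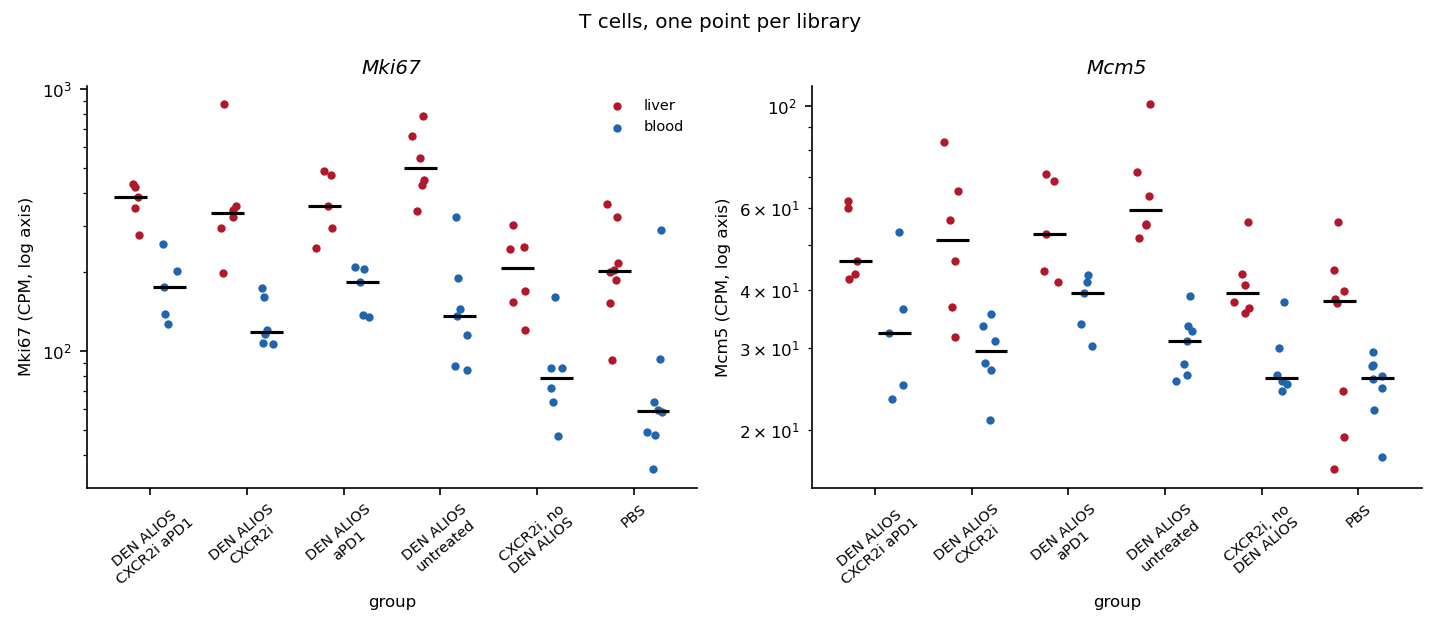
Mki67 and Mcm5 in CPM on a log axis in each T cell library of 6 groups, liver in red left of blood in blue, with lines at the medians. Untreated DEN ALIOS liver libraries reach from 342 to 787 CPM of Mki67, and PBS liver libraries from 92.6 to 364 CPM.

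Liver and blood T cells of the same animal were compared in all 6 groups, and every member called was higher in the liver. Between 44 and 47 of the 47 log2 fold changes were positive in each group. With the animal as a block and 13859 genes tested, 43 of 47 members rose in untreated DEN ALIOS mice, where 19.8% of all genes rose. The count was 26 under the combination (8.88% of genes), 40 under CXCR2i (19.9%), 22 under aPD1 (9.25%), 29 with CXCR2i without DEN ALIOS (10%) and 34 in PBS (18.4%). Median log2 fold changes of the members were 1.54 untreated, 0.79 under the combination, 1.27 under CXCR2i, 0.81 under aPD1, 0.91 with CXCR2i without DEN ALIOS and 1.01 in PBS. The counts of 4 groups moved with the libraries fitted. Under CXCR2i 12 were called without the libraries labelled as given the isotype antibody. In PBS 15 were called when its own libraries were fitted alone. The share of all genes is not given for these fits. Leaving out aPD1 replicate 1 gave 2 members and replicate 5 gave 12, and leaving out combination replicate 1 gave 9 and replicate 2 gave 8.

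In untreated DEN ALIOS mice Ccnd1 led at 2.61 ± 0.76 (means 32.7 CPM in liver and 4.76 CPM in blood), before Bub1 at 2.56 ± 0.46, Aurkb at 2.18 ± 0.35 and Ccnb1 at 2.15 ± 0.32. Mki67 was higher in the liver in 6 of 6 animals, with means of 535 and 161 CPM, no overlap and a log2 fold change of 1.85 ± 0.25 (edgeR adjusted p 1.14e-06). Top2a rose by 2.08 ± 0.26, Mcm5 by 1.09 ± 0.14 and Pcna by 0.56 ± 0.13. Ccne1, Cdt1, Mcm7 and Gins2 were not called. Mki67 rose in the other groups as well, by 1.08 ± 0.27 under the combination, 1.48 ± 0.25 under CXCR2i, 1.07 ± 0.27 under aPD1, 1.30 ± 0.25 with CXCR2i without DEN ALIOS and 1.60 ± 0.23 in PBS. Ccnd1 passed the test in PBS too (3.10 ± 0.78), and not in the other 4 groups.

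The other leading members differed by group. Cenpa rose by 2.26 ± 0.18 under CXCR2i, 1.37 ± 0.19 under aPD1 and 1.32 ± 0.19 under the combination. Bub1 rose by 1.88 ± 0.46, 1.45 ± 0.51 and 1.46 ± 0.49 in the same groups. In PBS Tpx2 (1.99 ± 0.28), Cenpf (1.78 ± 0.32) and the checkpoint kinase Bub1b (1.67 ± 0.26) followed Ccnd1, and with CXCR2i without DEN ALIOS E2f8 (1.76 ± 0.32) led before Tpx2 (1.51 ± 0.30) and Hmmr (1.30 ± 0.32). Hepatocyte markers, 5 of 5 tested, also rose in every group except CXCR2i without DEN ALIOS, where none of 5 was called, and summed to between 10.1 and 509 CPM in liver and between 0.150 and 2.92 CPM in blood T cells of untreated DEN ALIOS mice. Kupffer cell and macrophage markers rose in 5 of 5 there. The part of these cells was not tested.

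The liver-minus-blood difference of untreated DEN ALIOS mice was larger than that of PBS mice for 5 of 47 members, where it was larger for 5.12% of all genes, and for none was it smaller. These were Ccnb1 (1.75 ± 0.51), Cenpa (1.39 ± 0.24), Aurka (1.16 ± 0.35), Mcm5 (0.63 ± 0.20) and Pcna (0.63 ± 0.18). Aurka is a kinase of the spindle poles. Mki67 differed by 0.25 ± 0.34 (edgeR adjusted p 0.696) and Ccnd1 by −0.49 ± 1.07. The 5 calls became 1 when only these groups were fitted and 11 without a filter on low counts.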

How the data were processed

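Tissue libraries were made from poly(A) RNA with a stranded kit and sorted cell libraries from total RNA with a low-input stranded kit, per the labels' protocols. Reads were trimmed with Trim Galore 0.6.4, checked with FastQC 0.11.8, aligned with HISAT2 2.1.0 to GRCm38 and counted with HTSeq 0.11.2, as named in the submitters' processing notes. The strand setting and annotation are not given in the sources used here. Overlapping or antisense genes can therefore not be told apart. The values used are raw counts per gene in 1 table deposited by the authors. Its 5 summary entries, 63.2% of all counts, were left out, and symbols were found for 37607 of 37713 genes.

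Each kind of sample was normalised on its own with TMM factors in edgeR 4.0.16 (R 4.3.3), and levels are TMM-scaled counts per 1000000 counts (CPM). Genes were kept by filterByExpr (minimum count 10, minimum total 15) and tested with the quasi-likelihood test and Benjamini-Hochberg adjustment over all genes, at 0.05. Errors of fold changes are standard errors. Tissue fits held the run, and fits of treated against untreated cells the run set, as a term. Run sets A to F group the codes that open the libraries' descriptions. DEN ALIOS against PBS had no such term. Liver and blood fits held the animal named in the descriptions as a block. Same-animal libraries deviated together with a median correlation of 0.100 over 29 neutrophil pairs and 0.117 over 36 T cell pairs, against −0.0059 and −0.0276 between other animals. Leave-one-out refits of these paired fits kept the dispersions of the full fit. DESeq2 1.42.0, RLE factors and other sets of libraries were alternatives. No 2 libraries of a group agreed within sampling noise. Nothing in the labels ties tissue libraries to animals, so p-values there measure the spread between samples, not between mice. S100a8 stood apart in liver tissue replicates 4, 5 and 6, at 19.3, 17.7 and 17.1 CPM, against 1.34 to 3.98 CPM in the other pieces. Where samples share a mouse, these p-values can be too small.

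On simulated data with 200 changed genes, the fit for large tumours against liver tissue recovered 89% of 2-fold and 100% of 4-fold changes. The fits for liver neutrophils of the combination group and for liver T cells of DEN ALIOS against PBS recovered 12% and 62%, and 68% and 88%. A floor of 3 counts equals 0.198, 0.527 and 0.477 CPM at the median depth of tissue, neutrophils and T cells, for counting error only.

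The members, gene lists and tests were chosen with earlier results of these data known. By the rule for named genes, fold changes are given for Mki67, Ccnd1 and up to 4 called members with the largest change in each direction, and for up to 3 called genes of each pathway list. Levels are given for Mki67, Top2a, Mcm5, Pcna, Ccne1 and Ccnd1. Fold changes of other members were picked after their values were seen. Promoters came from a RefSeq table. Plots were drawn with matplotlib 3.10.9.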

Additional observations from a re-analysis of the deposited data

Results flagged for a closer look

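Within groups of 4 to 10 samples the highest or lowest library was compared with its neighbours by Dixon's criterion for 6 members and the summed level, in 140 tests. Chance flags about 1 in 20 groups, and 25 values stood apart. All are given as values with no explanation.

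In liver neutrophils under CXCR2i, replicate 8 was highest for Top2a at 288 CPM, Mcm5 at 21.7 CPM, Ccne1 at 5.43 CPM and the summed level of 46 members at 2089 CPM, and replicate 6 for Ccnd1 at 29.5 CPM. In the combination group replicate 1 was highest for Ccne1 at 7.40 CPM.

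In blood neutrophils under aPD1, replicate 5 was highest for Mki67 at 15.2 CPM, Top2a at 5.86 CPM and Mcm5 at 3.18 CPM. Under CXCR2i replicate 8 was highest for Mcm5 at 1.09 CPM, and in the combination group replicate 1 for Ccnd1 at 2.99 CPM.

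In liver T cells under CXCR2i, replicate 5 was highest for Mki67 at 871 CPM and the summed level at 3538 CPM. In the group given CXCR2i without DEN ALIOS replicate 4 was highest for Mcm5 at 56.2 CPM. In the combination group replicate 4 stood apart for Ccne1 at 9.30 CPM, and replicate 3 was lowest for Pcna at 41.9 CPM.

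In blood T cells of the PBS group, replicate 7 was highest for Mki67 at 289 CPM, Top2a at 129 CPM and the summed level at 1298 CPM. With CXCR2i without DEN ALIOS replicate 4 was highest for Mki67 at 161 CPM, Top2a at 84.3 CPM and the summed level at 1075 CPM. Untreated DEN ALIOS replicate 1 was highest for Top2a at 144 CPM, combination replicate 5 for the summed level at 1399 CPM, and aPD1 replicate 1 for Ccnd1 at 11.3 CPM.

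The liver-minus-blood difference itself differed between groups for 4 members in neutrophils (combination against untreated) and for 5 members in T cells (untreated DEN ALIOS against PBS), by edgeR's test of the difference.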

How the results depend on the processing

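Counts of members called stayed within 1.5 times the reported count in 195 fits and moved further in 38, beside leave-one-out fits. The tumour-against-tissue counts and that of DEN ALIOS against PBS in liver T cells stayed within it in every fit tried. The causes of the moves were not tested. Shares of all genes are given above only for fits within a tissue run and without the shallow or mixed libraries. Other counts in this section can therefore not be set against all genes. The filter on low counts left 45 of 47 members to be tested in liver neutrophils and 22 in blood neutrophils.

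DESeq2 called 1 member between large and small tumours, 1 in liver neutrophils under CXCR2i, 1 in liver T cells under the combination, 1 in blood neutrophils under CXCR2i, and 2 and 8 for the neutrophil site differences of CXCR2i and the combination. Without the run term the counts were 1 for large against small tumours, 6 for liver neutrophils of the combination, 2 for liver T cells under CXCR2i, 2, 1 and 1 for blood neutrophils under CXCR2i, the combination against untreated and against aPD1, and 1 for blood T cells under CXCR2i. Within run set A they were 4 in liver and 1 in blood neutrophils of the combination. Without a filter on low counts they were 1 in liver T cells with CXCR2i without DEN ALIOS, 1 in blood neutrophils of the combination, 8 and 9 for the neutrophil site differences and 11 for that of T cells. RLE factors gave 1 in blood neutrophils under CXCR2i and 0 in blood T cells with CXCR2i without DEN ALIOS. Without shallow or mixed libraries the counts were 30 in liver neutrophils of the combination, 11 untreated and 20 under aPD1 for liver against blood neutrophils, and 0 for the combination's site difference. Without libraries labelled Vehicle or isotype they were 1 in blood neutrophils of the combination, 0 for its site difference and 12 for liver against blood T cells under CXCR2i. Fits on only the groups compared gave 6 untreated and 17 under CXCR2i for liver against blood neutrophils, 15 in PBS for T cells and 1 for the T cell site difference, which was 3 without the animal block. The linked run-set fit gave 4 in blood T cells. Leaving out 1 animal at a time gave 2 to 22 members under aPD1 and 8 to 22 under the combination for liver against blood T cells, and 0 to 1 in blood neutrophils of the combination against aPD1 (1 without aPD1 replicate 5).

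A replicate block from the title numbers gave 1 member in liver T cells and 0 in blood T cells with CXCR2i without DEN ALIOS and 1 in blood neutrophils under CXCR2i. Same-numbered libraries deviated together with median correlations from −0.07 to 0.056, the highest being that of whole tissue. Known same-animal pairs of sorted cells also had low median correlations. These values can therefore not decide whether the numbers pair samples.

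Values that changed sign were mostly small. Mki67 between large and small tumours was −0.0170 with the replicate block, −0.0238 without the run term and −0.0390 in run 3, and Ccnd1 was 0.0845 in run 1. Ccnd1 was 1.72 in liver neutrophils under aPD1 and −0.44 in liver T cells under CXCR2i without the run term, and −4.07 in liver and −2.08 in blood T cells of DEN ALIOS against PBS with linked run sets. Mki67 was 0.0137 in liver and 0.42 in blood T cells with CXCR2i without DEN ALIOS with the replicate block. In blood neutrophils Mki67 was −0.53 under aPD1 without the run term and −0.14 to 0.98 with 1 aPD1 library left out (−0.14 without replicate 5), and −0.0115 to 1.12 in the combination against aPD1 (−0.0115 and −0.0080 without aPD1 replicates 1 and 4). In blood T cells Mki67 was 0.16 under aPD1 without the run term and −0.0925 to 0.0607 with 1 aPD1 library left out, and under the combination −0.24 with the block and −0.27 to 0.41 with 1 library left out. Ccnd1 there was −0.20 with the block, −0.15 without the run term and −0.12 to 0.54 with 1 library left out.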
